A study of Mus musculus with 34 samples.

Results

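The bins next to the centromeric end of each mouse chromosome were examined in all 28 libraries. They were taken by position alone, as every 1 kb bin of the deposited count table with a start from 3000000 to 3500000 on chromosomes 1 to 19 of GRCm38. This gave 500 bins per chromosome, running from base 3000991 to base 3500990 on each, and 9500 bins in all. They make up 0.361% of the 2631639 bins on the autosomes and X. Mouse autosomes carry the centromere at one end, inside long arrays of satellite repeats that are packed as heterochromatin and marked by methylation of histone H3 lysine 9. The arrays are not in the reference assembly, so each chromosome opens with a gap, and the 56962 bins that lie before 3000000 on these chromosomes were listed at 0 in all 28 libraries. The assembled bases just after the gap hold ordinary genes, and can also hold stray copies of repeats whose other copies are unassembled. No repeat annotation was used here.

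The libraries came from C2C12, an established mouse myoblast line, by multi-target chromatin integration labelling (mtChIL-seq). In this assay an antibody on fixed cells carries a DNA probe that Tn5 transposase inserts into the genome beside the target, and RNA transcribed from the inserted probe is sequenced. Dual staining was read out for H3K4me3 and CTCF together at 1000 and 10000 cells, and for H3K27ac and Pol2S2P together at 100 and 1000 cells, each with 3 libraries per target and cell number. Single staining was read out for CTCF at 10000 cells and for Pol2S2P at 1000 cells, with 2 libraries each. H3K4me3 marks active promoters, H3K27ac marks active promoters and enhancers, CTCF is a DNA-binding protein of insulators and loop anchors, and Pol2S2P is taken here as RNA polymerase II phosphorylated at serine 2, its elongating form. Since no label ties replicates to separate cultures, the spread behind each p-value is that of these libraries and may be technical. The comparisons are between targets, cell numbers and stainings, and several of them share libraries.

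The region overlaps 73 protein-coding genes, 62 of them lying wholly inside. Upstream sequences for 58 of the 73 were found in a RefSeq table of GRCm38.p6, with 79 listed starts of transcription, 74 of them inside the region. The first 3 sequences are shown as examples of high H3K4me3 with many CG dinucleotides, high H3K4me3 with few and low H3K4me3 with many, and the last because its gene start had the highest CTCF density of the 74 at 10000 cells. They were chosen after their values were seen. Each is the 250 bases before the start of transcription, read 5′ to 3′ on the gene's strand. Capitals mark CG dinucleotides in the first 3. In the last, which has 0 CG, they mark a match to the letters CCANNAGNNGGC, which follow the core of the known CTCF motif.
Asxl2 (chr12:3426607-3426856, plus strand): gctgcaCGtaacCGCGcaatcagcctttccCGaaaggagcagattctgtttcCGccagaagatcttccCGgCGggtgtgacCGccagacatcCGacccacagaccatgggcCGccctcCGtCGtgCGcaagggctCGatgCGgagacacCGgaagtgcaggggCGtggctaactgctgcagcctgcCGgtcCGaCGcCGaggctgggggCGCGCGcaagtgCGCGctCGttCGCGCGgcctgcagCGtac
Alkbh8 (chr9:3334981-3335230, plus strand): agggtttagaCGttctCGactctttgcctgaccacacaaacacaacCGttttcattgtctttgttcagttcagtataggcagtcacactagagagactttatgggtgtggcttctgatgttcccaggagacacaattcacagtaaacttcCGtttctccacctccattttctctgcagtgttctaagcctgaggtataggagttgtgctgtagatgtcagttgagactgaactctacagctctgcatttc
Tesmin (chr19:3389128-3389377, plus strand): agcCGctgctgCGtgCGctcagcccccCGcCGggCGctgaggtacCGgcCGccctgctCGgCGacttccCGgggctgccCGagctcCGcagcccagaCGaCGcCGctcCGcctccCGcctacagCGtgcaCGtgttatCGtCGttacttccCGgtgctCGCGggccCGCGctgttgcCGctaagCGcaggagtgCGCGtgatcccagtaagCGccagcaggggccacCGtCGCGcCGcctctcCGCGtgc
Samd9l (chr6:3399572-3399821, minus strand): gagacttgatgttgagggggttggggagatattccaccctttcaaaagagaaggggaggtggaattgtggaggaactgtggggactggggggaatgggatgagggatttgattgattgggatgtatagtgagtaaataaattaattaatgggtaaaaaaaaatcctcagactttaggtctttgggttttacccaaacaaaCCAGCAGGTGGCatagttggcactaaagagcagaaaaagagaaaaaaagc

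The libraries held 719766 to 6653298 counts, of which 2609 to 22631 fell in the 9500 bins (0.336% to 0.426%). Of these bins, 1209 (12.7%) had no count in any library, against 3.71% of all bins after 3000000. Bins over 50 times the mean bin in every group were left out of library totals. There were 9, on chromosomes 2, 9 and 14, and 0 lay in the region. Density below means counts per bin divided by the mean count per bin of the same library, so that 1 is the genome mean. That mean is over all bins on autosomes and X, with the 56962 empty bins before 3000000 among them. The mean over bins after 3000000 is therefore slightly above 1.

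Summed over chromosomes, the region lay close to the genome mean for every target. H3K4me3 density had a lowest, median and highest value of 0.998, 1.01 and 1.03 over its 6 dual libraries, and CTCF of 0.936, 0.960 and 0.996, so these targets did not overlap. The difference of 0.0513 gave, with libraries permuted within cell numbers and unpaired, an exact permutation p of 0.005 (two-sided, the smallest possible, adjusted p = 0.03 over the 12 density tests, n = 6 and 6), with H3K4me3 higher in 6 of 6 same-numbered libraries. Same-numbered libraries of a dual staining are labelled as a pair of readouts of 1 staining, and the paired exact permutation test gave p = 0.0312, adjusted p = 0.0625, which is the smallest p that 6 pairs allow and did not pass. H3K27ac had values of 0.973, 0.990 and 1.02 and Pol2S2P of 1.08, 1.10 and 1.13, again without overlap. Their difference of -0.108 gave an exact permutation p of 0.005 (two-sided, adjusted p = 0.03), with H3K27ac higher in 0 of 6. Paired, the exact permutation test gave p = 0.0312, adjusted p = 0.0625, which did not pass either. The H3K4me3 difference depended on where the region ends and on genes. In the first 250 kb it was -0.132, the opposite sign, and in bins over 2 kb from protein-coding genes it was 0.0227 with an adjusted p of 0.487 (exact permutation). It also missed adjustment without H3K4me3 replicate 3 or CTCF replicate 2 at 1000 cells (0.0466 and 0.0488, adjusted p = 0.06 by the exact permutation test in both).

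The staining and cell number comparisons of total density did not pass. CTCF at 10000 cells was 0.945, 0.942 and 0.936 with dual staining and 0.931 and 0.942 with single staining (exact permutation p = 0.6, adjusted p = 0.655). Pol2S2P at 1000 cells was 1.08, 1.10 and 1.10 with dual staining and 1.14 and 1.18 with single staining, without overlap and at the smallest p that 3 against 2 libraries allow (exact permutation p = 0.1, adjusted p = 0.15). CTCF at 1000 cells was 0.996, 0.975 and 0.984, above all 3 libraries of 10000 cells. That difference of -0.0440 also sits at the smallest possible p for 3 against 3 (exact permutation p = 0.1, adjusted p = 0.15). The differences of 10000 minus 1000 cells for H3K4me3, and of 1000 minus 100 cells for H3K27ac and Pol2S2P, were -0.00351, -0.0110 and -0.0129, and their libraries overlapped.

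Against the last 500 kb of the same chromosomes, the end far from the centromere, the region was denser in all 6 dual libraries of every target. The mean log2 ratio was 0.39 for H3K4me3, 0.39 for CTCF, 0.21 for H3K27ac and 0.44 for Pol2S2P. Each stood at the smallest exact permutation p that 6 pairs allow (p = 0.0312), which adjusts to 0.0625 and so did not pass. Of the 9494 far-end bins, 26.5% had no count in any library, against 12.7% of the region's bins. These empty bins are part of the densities compared, and their share in the ratios was not separated. With 1000 kb at both ends the sign turned for all 4 targets, to -0.13, -0.09, -0.29 and -0.08 in the same order. H3K27ac also turned over bins with a count in any library (-0.04) and over bins away from genes (-0.04).

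**Figure D1:**
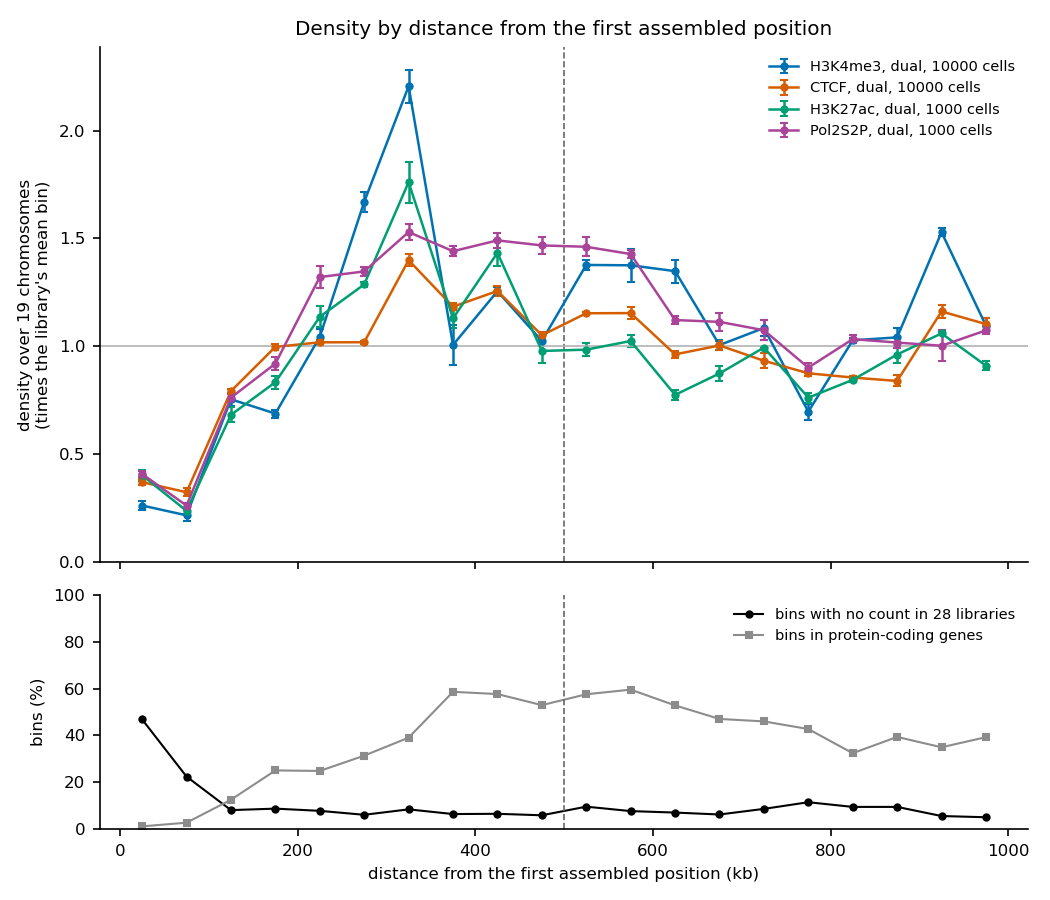
Top: density in steps of 50 kb over 19 chromosomes (mean and SD of 3 libraries) against distance from 3000000, for the larger cell number of each target with dual staining, with the region's edge dashed. Bottom: share of bins with no count in 28 libraries, and share in protein-coding genes. Density is low in the first 100 kb, and at 300 to 350 kb it is 2.21 for H3K4me3.

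Signal was unevenly placed along the region. In the first 50 kb density was 0.252 to 0.588 across the 10 groups, and 46.8% of bins had no count in any library. Chromosomes 2, 4, 6, 10, 11 and 15 had no count in 49 or 50 of their first 50 bins. The median chromosome had a density of 0.0481 to 0.103 over that stretch, well under the mean, and chromosome 9, described below, stood above it. From 50 to 100 kb density was 0.198 to 0.341. From 300 to 350 kb it reached 2.21 ± 0.08 for H3K4me3 at 10000 cells, 1.40 ± 0.03 for CTCF at 10000 cells, 1.76 ± 0.10 for H3K27ac at 1000 cells and 1.53 ± 0.04 for Pol2S2P at 1000 cells (SD, n = 3 each). The share of bins in protein-coding genes was 1.16% in the first step and 39.1% in this one, but 58.6% and 57.7% in the next steps, where H3K4me3 density at 10000 cells was lower again (1.01 and 1.26). Across the edge of the region, CTCF at 10000 cells was 1.05 ± 0.01 in the last 50 kb inside and 1.15 ± 0.01 in the next 50 kb outside, and H3K4me3 at 10000 cells was 1.02 ± 0.00 and 1.38 ± 0.03.

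Genes held a larger share of counts than of bins. Of the member bins 30.6% lie in protein-coding genes, fewer than the 39.8% of all bins, and they held 48.7% to 66.4% of the region's counts across groups. In the whole genome that share was 51.0% to 64.9%. In-gene density in the region was 2.12 ± 0.02 for H3K4me3 at 10000 cells, against 1.63 in genes of the whole genome. The same pair of values was 1.57 ± 0.02 and 1.29 for CTCF at 10000 cells, 1.75 ± 0.04 and 1.31 for H3K27ac at 1000 cells, and 2.13 ± 0.04 and 1.46 for Pol2S2P at 1000 cells (SD, n = 3 each). Away from genes the region lay below the genome. The 6398 member bins over 2 kb from any protein-coding gene had densities of 0.465, 0.637, 0.628 and 0.603 in the same 4 groups, against 0.539, 0.795, 0.796 and 0.684 in such bins of the whole genome. These values were not tested. The 95 fullest member bins (1%) held 33.0% of H3K4me3 counts of the region at 10000 cells, but only 10.5% of Pol2S2P counts at 1000 cells, where the fullest 1% of all bins held 31.6% and 8.93%.

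**Figure D2:**
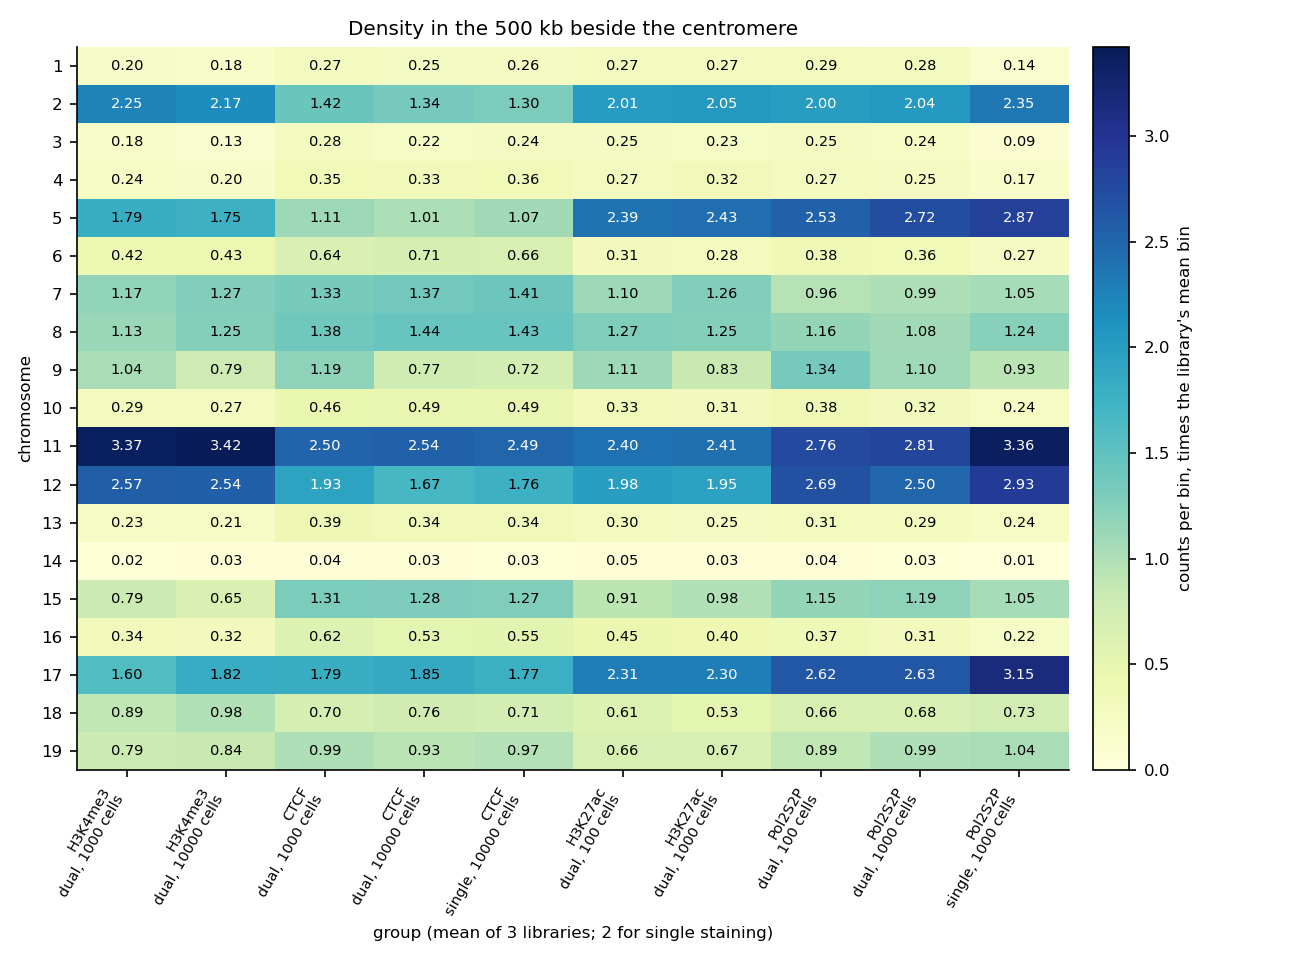
Density of the 500 kb window of each chromosome (rows) in each group (columns), as the mean of 3 libraries, or 2 for single staining. Colour and printed number give counts per bin as a multiple of the library's mean bin. Chromosome 11 lies between 2.40 and 3.42 and chromosome 14 between 0.0109 and 0.0465 over the groups.

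The 19 chromosomes differed far more than the groups did. Chromosome 11, with 10 protein-coding genes in its window, was the densest for H3K4me3, CTCF and Pol2S2P. Its H3K4me3 density at 10000 cells was 3.42, 3.496 and 3.34 in the 3 libraries, at percentile 97.2 of all 500 kb windows. For CTCF at 10000 cells it was 2.56, 2.58 and 2.47. Next for H3K4me3 came chromosomes 12 (2.54 ± 0.03) and 2 (2.17 ± 0.05), and for CTCF chromosomes 17 (1.85 ± 0.06) and 12 (1.67 ± 0.06). For H3K27ac at 1000 cells chromosomes 5 (2.43 ± 0.16), 11 (2.41 ± 0.02) and 17 (2.30 ± 0.08) led, the first 2 within each other's spread (SD, n = 3). For Pol2S2P at 1000 cells chromosomes 11 (2.81 ± 0.10), 5 (2.72 ± 0.02) and 17 (2.63 ± 0.21) led, also within each other's spread. Chromosomes 2, 5, 11, 12 and 17, a set chosen after the values were seen, held 46.7% to 66.4% of the region's counts.

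The rank of chromosome 5 depended on the target. Its only protein-coding gene in the window is Cdk6, a cyclin-dependent kinase of the G1 phase, which begins at 3341004 and covers 32.0% of the bins. CTCF density there was 0.978, 1.02 and 1.03 at 10000 cells and 1.17, 1.04 and 1.11 at 1000 cells. Pol2S2P density was 2.74, 2.70 and 2.71 at 1000 cells and 2.62, 2.60 and 2.36 at 100 cells. The CTCF window at 10000 cells stood at percentile 54.1 of all 500 kb windows and the Pol2S2P window at 1000 cells at percentile 96.1. CTCF and Pol2S2P were never stained together, so these levels are given side by side without a test.

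Chromosome 14 was lowest for all 4 targets, with densities of 0.0109 to 0.0465 across groups and only 431 counts in 28 libraries. In its window 331 of 500 bins had no count, although it holds 9 protein-coding genes. Most of these are predicted genes, and reads from near-identical copies could have been lost or split in counting, which was not tested. Chromosome 3 followed at the larger cell numbers (0.134 for H3K4me3, 0.225 for CTCF, 0.227 for H3K27ac and 0.237 for Pol2S2P). The third lowest was chromosome 1 for H3K4me3 (0.176) and CTCF (0.245), chromosome 13 for H3K27ac (0.254) and chromosome 4 for Pol2S2P (0.254). Chromosomes 3, 13 and 16 have 0 protein-coding genes in the window. Group means lay between 0.96 and 1.44 on chromosomes 7 and 8, between 0.65 and 1.31 on chromosome 15, between 0.53 and 1.34 on chromosomes 9, 18 and 19, and between 0.22 and 0.71 on chromosomes 6, 10 and 16. In all, 7 to 9 of the 19 windows were above the genome mean. Across the 19 chromosomes density ran with the share of bins in genes (Spearman correlation 0.61 to 0.66 in the 10 groups, which share these chromosomes and their gene content). Chromosome 1 departed from this, since Xkr4 covers 60.4% of its bins at a window density between 0.14 and 0.29.

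**Figure D3:**
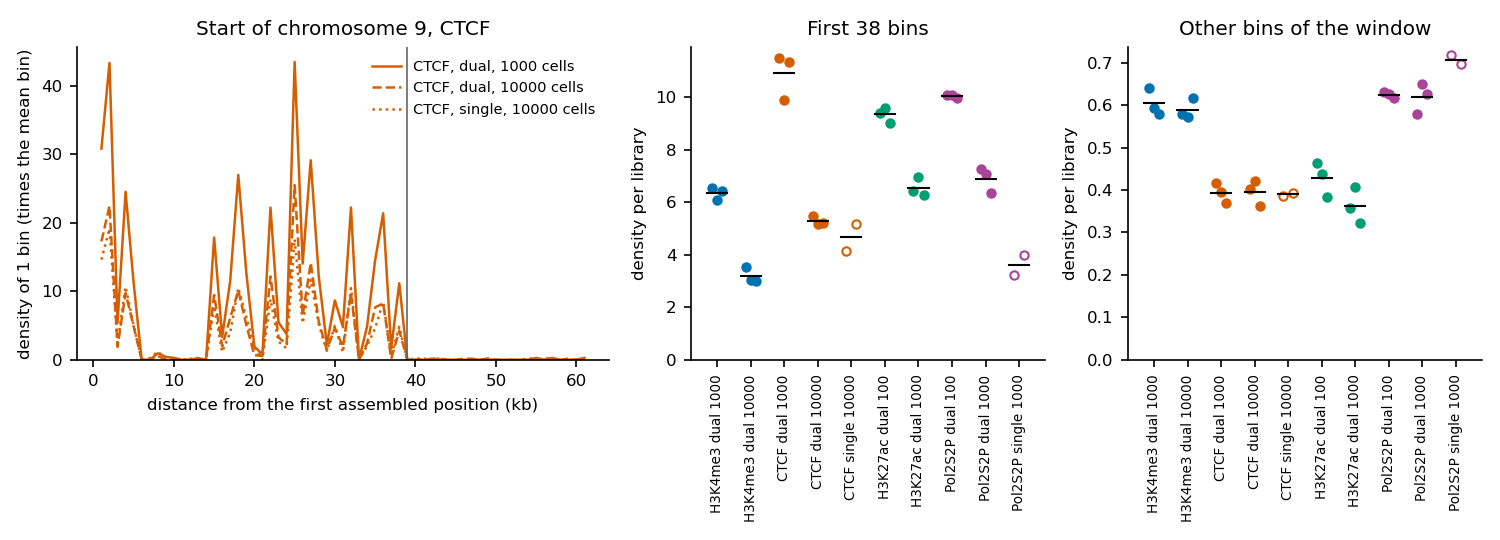
Left: CTCF density of single bins in the first 60 kb of chromosome 9 (mean of each group). Middle and right: density of the first 38 bins and of the other 462 bins of the chromosome 9 window in each library (open points are single staining). In the first 38 bins CTCF lies between 9.89 and 11.5 at 1000 cells and between 5.17 and 5.46 at 10000 cells.

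The window that changed with cell number for all 4 targets was that of chromosome 9. At 10000 against 1000 cells it fell for CTCF from a density of 1.19 ± 0.07 to 0.767 ± 0.03 (log2 fold change -0.62, SE 0.05, edgeR adjusted p = 2.16e-12). For H3K4me3 it fell from 1.04 ± 0.04 to 0.787 ± 0.02 (-0.40, SE 0.09, edgeR adjusted p = 0.00135). At 1000 against 100 cells it fell for H3K27ac from 1.11 ± 0.06 to 0.832 ± 0.07 (-0.41, SE 0.08, edgeR adjusted p = 0.0061). For Pol2S2P it fell from 1.34 ± 0.01 to 1.10 ± 0.04 (-0.29, SE 0.07, edgeR adjusted p = 0.034; SD over 3 libraries throughout). It was the only member window called for H3K4me3, of 18 tested, and for H3K27ac and Pol2S2P, of 19 each. CTCF had 1 more, chromosome 12 (-0.20, SE 0.04, edgeR adjusted p = 0.00475). Chromosome 12 lost the call with DESeq2 (adjusted p = 0.0768) and in edgeR without replicate 1 or 2 at 10000 cells (adjusted p = 0.0651 and 0.0543). Of all windows, 1.95% were called lower at the larger cell number for CTCF, 7.62% for H3K4me3, 0.0586% for H3K27ac and 0.195% for Pol2S2P. The chromosome 9 call was made under all 10 alternatives for CTCF and under 9 of 10 for H3K4me3, where DESeq2 gave no adjusted p. For H3K27ac it was made under 5 of 10: adjusted p was 0.122 by DESeq2, and by edgeR 0.0582 and 0.148 without replicate 1 or 2 at 100 cells and 0.0536 and 0.342 without replicate 1 or 3 at 1000 cells. For Pol2S2P it was made under 3 of 10: adjusted p was 0.33 by DESeq2, 0.141 with a replicate block in edgeR, 0.068 and 0.0758 without replicate 1 or 2 at 100 cells, and 0.199, 0.116 and 0.222 without replicate 1, 2 or 3 at 1000 cells.

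Within the chromosome 9 window, the first 38 bins (bases 3000991 to 3038990) differed most with cell number. This stretch was chosen after its values were seen and is described without a test. CTCF density there was 11.5, 9.89 and 11.3 in the libraries of 1000 cells, 5.46, 5.17 and 5.23 in those of 10000 cells, and 4.15 and 5.17 with single staining. H3K4me3 density was 6.54, 6.10 and 6.44 at 1000 cells and 3.52, 3.05 and 3.01 at 10000 cells. H3K27ac density was 9.41, 9.60 and 9.03 at 100 cells and 6.42, 6.95 and 6.27 at 1000 cells. For each of these targets the libraries of the smaller cell number lay above all those of the larger. Pol2S2P did so too, at 10.1, 10.1 and 9.98 with 100 cells and 7.26, 7.06 and 6.37 with 1000 cells, and was 3.22 and 4.005 with single staining. The other 462 bins of that window had group means of 0.394 and 0.396 for CTCF at 1000 and 10000 cells, and 0.604 ± 0.033 and 0.589 ± 0.024 for H3K4me3. At 100 and 1000 cells they were 0.625 ± 0.007 and 0.618 ± 0.035 for Pol2S2P. For H3K27ac they were lower at the larger cell number, 0.429 ± 0.041 and 0.362 ± 0.041 (SD, n = 3), with overlapping libraries and no test. Without chromosome 9, the difference in total density between cell numbers turned to 0.0104 for H3K4me3, 0.0036 for H3K27ac and 0.0001 for Pol2S2P. The CTCF difference did not turn and stayed negative. With only the first 38 bins of chromosome 9 left out, CTCF density was 0.945 ± 0.008 at 1000 cells and 0.924 ± 0.004 at 10000 cells. These are SD over 3 libraries each, and the libraries did not overlap.

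A pair of bins on chromosome 12 (bases 3108991 to 3110990, over 2 kb from any protein-coding gene) differed in the same direction. They were also picked after their values were seen. Their CTCF density was 85.0, 72.6 and 65.9 at 1000 cells, 39.3, 38.9 and 38.8 at 10000 cells, and 29.3 and 35.6 with single staining. Their group means, the smaller cell number first, were 68.8 and 30.9 for H3K4me3, 84.1 and 48.1 for H3K27ac, and 89.9 and 45.6 for Pol2S2P. The 9 left-out bins elsewhere in the genome had group means of 256 and 135 for CTCF and 353 and 194 for H3K27ac in the same order. Whether repeated sequence has a part in these values was not tested. Member bins over 5 times the genome mean in every one of the 10 groups, whatever the antibody, numbered 40 (0.421% of members, against 0.213% of all bins). Of these, 17 were on chromosome 11, 7 on chromosome 9 and 5 on chromosome 12, and 25 lay in genes.

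**Figure D4:**
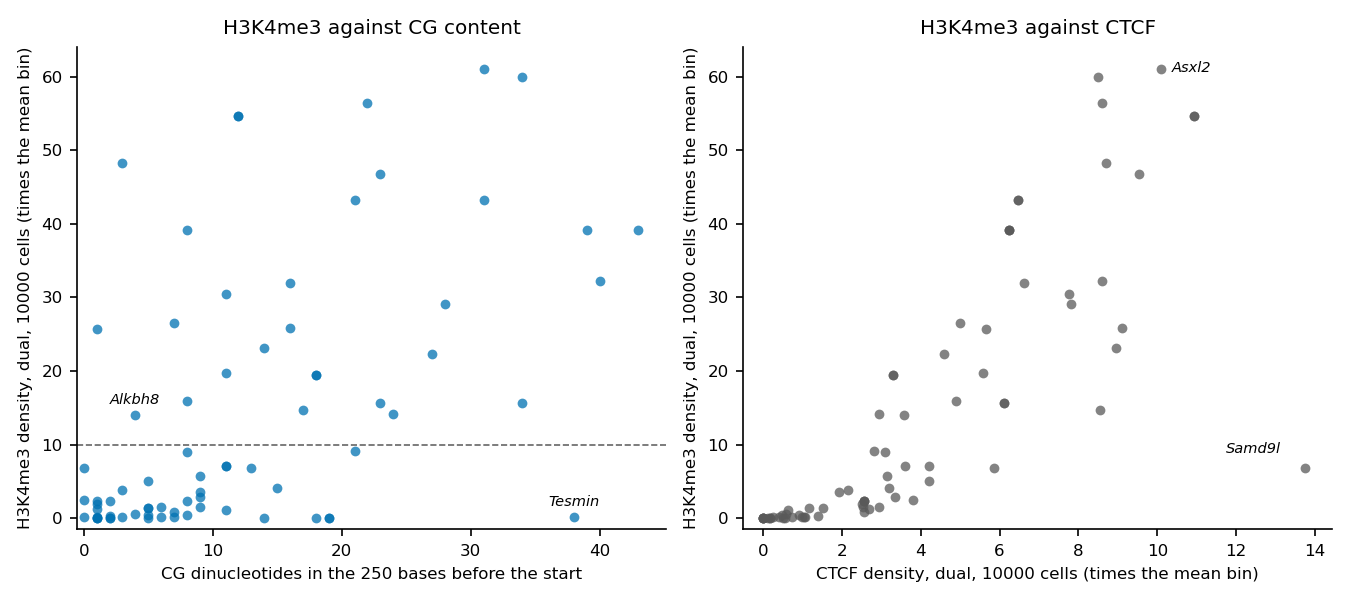
Each point is 1 of the 74 listed gene starts in the region. Left: H3K4me3 density at the start (10000 cells, mean of 3 libraries) against the number of CG dinucleotides in the 250 bases before it, with a dashed line at 10 times the genome mean. Right: the same H3K4me3 density against CTCF density (10000 cells, dual). H3K4me3 reaches 61.0 at Asxl2, with Rab10 close to it, and CTCF is highest at Samd9l (13.7).

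H3K4me3 was concentrated at gene starts. Of the 74 starts, 30 (40.5%, in 22 genes) had an H3K4me3 density over 10 at 10000 cells, counted over the bins within 1 kb, against 28.5% of all 32619 listed starts. Starts that lie close share bins, so they are not independent. The 30 had a median of 18 CG dinucleotides in the 250 bases before the start (range 1 to 43), and the other 44 a median of 5.5 (range 0 to 38). At least 15 CG were found in 19 of the 30 and in 6 of the 44, and 27.3% of all promoters of that length hold as many. The 6 include Gm2897, Gm38690 and Gm2956 (18, 19 and 19 CG), in the chromosome 14 window with almost no counts for any target. Whether reads were lost there was not tested. Among all starts, at least 15 CG were found in 65.8% above a density of 10 and in 12.2% below it. The first 3 sequences printed above show such cases. Asxl2, a chromatin protein of the Polycomb group, has 31 CG and an H3K4me3 density of 61.0 ± 9.2 (SD, n = 3). Rab10, with 34 CG, lay within that spread at 60.03 ± 3.1 (SD, n = 3), and at 1000 cells the values were 58.1 for Asxl2 and 60.4 for Rab10. Alkbh8, a transfer RNA methyltransferase, has only 4 CG at a density of 14.01. Rnf185, a ubiquitin ligase gene, has 3 at a density of 48.4. A start of another gene lies within 2 kb of it, unlike at Alkbh8, so this density cannot be assigned to the Rnf185 start alone. One listed start of Tesmin has 38 CG and an H3K4me3 density of 0.202, the most CG among starts below the genome mean.

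By the bin with most H3K4me3 within 1 kb of either end of a gene's full span, the highest genes were Asxl2, Rab10, Ghr, Drg1, Cdk6, Rnf185, Patz1, Nmt2, Hspa14 and Tiam2. The Asxl2 bin (bases 3426991 to 3427990) had 36.0, 29.9 and 40.0 CPM (counts scaled to a library total of 1000000) of H3K4me3 in the libraries of 10000 cells and 29.2, 33.4 and 33.2 in those of 1000 cells. CTCF there was 3.64, 4.96 and 5.66 CPM at 10000 cells. The bin of Drg1, a GTP-binding protein gene, had 30.3, 26.3 and 29.7 CPM of H3K4me3 at 10000 cells against 3.64, 3.62 and 4.67 of CTCF. A bin inside Myadm (from base 3290991), beyond 1 kb from the ends of its span but beside other listed starts, had 35.1 ± 3.0 CPM of H3K4me3 (SD, n = 3), second among member bins, and was named after its values were seen. In the Asxl2 and Drg1 bins every H3K4me3 library of 10000 cells lay above every CTCF library of 10000 cells. Both bins were picked by H3K4me3 in those same libraries, so this separation is no test. The libraries of 1000 cells did not enter the choice. There the Asxl2 bin had 31.9 ± 2.4 CPM of H3K4me3 and 3.61 ± 0.2 of CTCF, and the Drg1 bin 25.5 ± 2.6 and 4.0 ± 1.1 (SD, n = 3). Rab10, a GTPase of vesicle transport, had 31.0 ± 1.2 CPM of H3K4me3 at 10000 cells and Cdk6 27.1 ± 1.7. Rnf185 had 26.1 ± 2.6, the zinc finger gene Patz1 24.4 ± 2.1, the myristoyltransferase gene Nmt2 22.9 ± 2.9 and Tiam2, an exchange factor for Rac, 20.8 ± 1.1 (SD, n = 3 each). The bins of Ghr, the growth hormone receptor (30.4 ± 3.7 CPM), and of the heat shock protein gene Hspa14 (22.1 ± 6.0 CPM) lie past the region's end, from bases 3581991 and 3511991. Suv39h2, named after its values were seen, encodes a methyltransferase of histone H3 lysine 9, and its own start in the region had an H3K4me3 density of 22.4.

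CTCF was highest at other bins. Adjoining bins in Sfi1, which encodes a centrin-binding protein, led the region at 10000 cells (19.4 ± 1.6 CPM from base 3185991 and 17.9 ± 1.5 CPM from base 3184991) and were picked after their values were seen. H3K4me3 there was 8.26 ± 1.6 and 9.84 ± 3.8 CPM. In the bin at the start of Samd9l, an interferon-induced gene, CTCF was 12.9, 13.4 and 14.8 CPM at 10000 cells, against 2.12, 8.11 and 7.59 CPM of H3K4me3. The start was picked for its high CTCF in these same libraries, so this gap is no test. At 10000 cells that start had the highest CTCF density of the 74 (13.7) and the only match to CCANNAGNNGGC, searched on both strands over 250 bases. With single staining at 10000 cells its density was 13.1. At 1000 cells it was 7.85 ± 2.0, not the highest. Starts without a match lay above it there, among them Limk2 (9.93 ± 0.9) and Asxl2 (9.80 ± 1.3, SD, n = 3 each). A match occurs in 2.07% of all promoters of this length. Over all starts the median CTCF density was 3.40 with a match (679 starts) and 1.43 without one (31940 starts).

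Away from genes by over 2 kb, the pair of bins on chromosome 12 was among the 3 highest bins of H3K27ac, Pol2S2P and CTCF, and its first bin among those of H3K4me3. At 10000 cells the highest H3K4me3 bin lay on chromosome 12 from base 3234991 (12.7 ± 1.3 CPM). CTCF there was 6.06 ± 0.6 CPM at 10000 cells and H3K27ac 0.654 CPM at 1000 cells. At 1000 cells the order was not kept, with 8.18 ± 3.0 CPM of H3K4me3 and 9.52 ± 1.2 of CTCF. Single-stained CTCF was 9.20 ± 0.7 CPM. The chromosome 12 pair had more H3K4me3 at 1000 cells (28.6 ± 8.0 and 23.7 ± 2.4 CPM). Another H3K4me3 bin, from base 3348991 of the same chromosome, had 11.6 ± 3.5 CPM. A CTCF bin on chromosome 16, whose window has no protein-coding gene, began at base 3121991 and had 12.04 ± 0.8 CPM at 10000 cells, 14.03 ± 1.4 at 1000 cells and 10.1 ± 0.2 with single staining. H3K27ac and Pol2S2P were 1.12 and 0.197 CPM in that bin at 1000 cells. An H3K27ac bin on chromosome 5 from base 3300991, before the start of Cdk6, had 13.5 ± 3.3 CPM at 1000 cells, with 5.82 ± 0.5 of Pol2S2P. For Pol2S2P the third bin, after the chromosome 12 pair, was in the chromosome 9 stretch (base 3024991, 11.8 ± 1.2 CPM at 1000 cells).

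**Figure D5:**
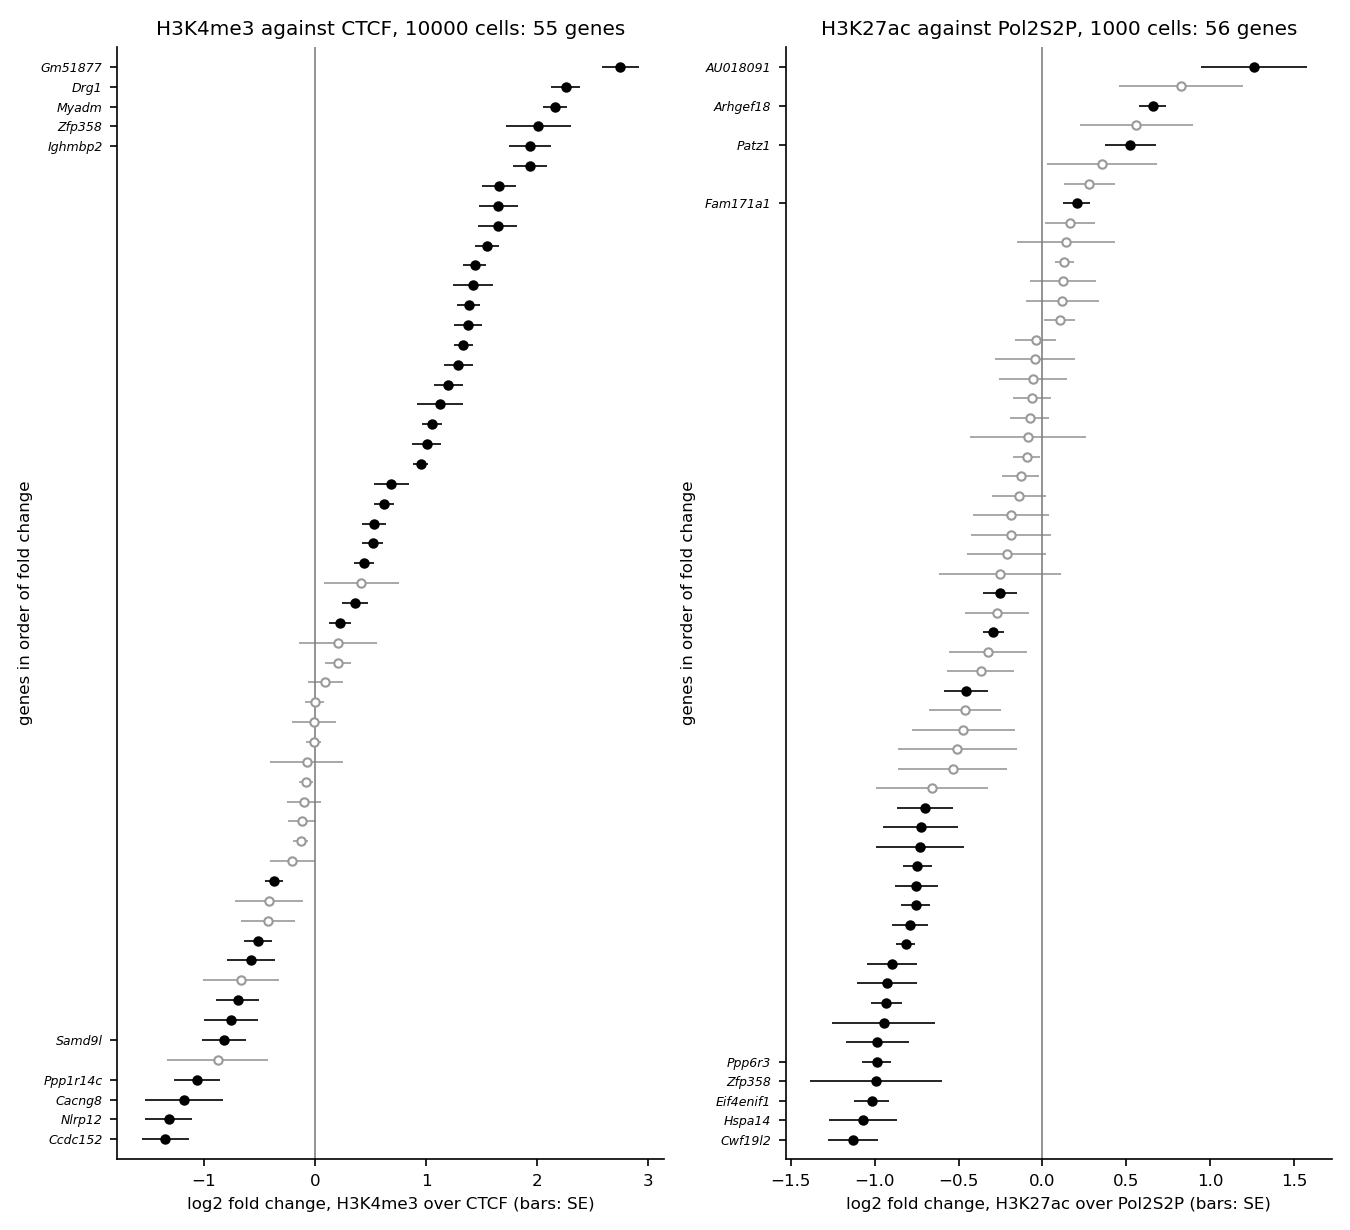
Log2 fold changes of counts over the whole gene (edgeR, bars are SE) for genes of the region that passed the filter on low counts, with names for up to 5 called genes in each direction, H3K4me3 over CTCF at 10000 cells (55 genes) and H3K27ac over Pol2S2P at 1000 cells (56 genes). Filled points passed an adjusted p of 0.05: 28 higher in H3K4me3 and 10 in CTCF, and 4 higher in H3K27ac and 21 in Pol2S2P. With TMM scaling these splits were 21 and 25, and 11 and 14.

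Of the 73 genes, 55 passed the filter on low counts for H3K4me3 against CTCF at 10000 cells. By edgeR's quasi-likelihood test 28 were higher in H3K4me3 and 10 in CTCF, against 51.3% and 27.6% of all genes tested. The median log2 fold change was 0.36 over members and 0.39 over all genes. The split depends on scaling: with TMM, which shifts the median of all genes to -0.06, it was 21 and 25. The highest were Gm51877 (2.75, SE 0.17, adjusted p = 5.63e-37), Drg1 (2.26, SE 0.13), the membrane protein gene Myadm (2.16, SE 0.11), Zfp358 (2.01, SE 0.29) and the helicase gene Ighmbp2 (1.94, SE 0.19). Gm51877 is a short predicted gene that shares its bins with Sfi1 and the start of Eif4enif1, so its counts cannot be assigned to it. Over the whole gene, Myadm had 103, 99.3 and 100.1 CPM of H3K4me3 and 22.02, 21.4 and 24.3 of CTCF. The genes most in favour of CTCF were Ccdc152 (-1.35, SE 0.21), which overlaps Selenop, Nlrp12 (-1.31, SE 0.21), of the NLR family, Cacng8 (-1.18, SE 0.35), an auxiliary subunit of AMPA receptors, Ppp1r14c (-1.06, SE 0.21), an inhibitor of protein phosphatase 1, and Samd9l (-0.82, SE 0.20).

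At 1000 cells 49 genes were tested, of which 27 were higher in H3K4me3 and 6 in CTCF by edgeR (48.6% and 23.6% of all genes), or 21 and 18 with TMM. Gm51877 (3.31, SE 0.25), Myadm (2.24, SE 0.17), Drg1 (2.097, SE 0.19), Hspa14 (2.07, SE 0.24) and Ighmbp2 (1.95, SE 0.29) were the highest. Nlrp12 (-1.77, SE 0.33), Ccdc152 (-0.64, SE 0.26), the kinesin gene Kif3c (-0.58, SE 0.19) and Arhgef18 (-0.40, SE 0.12) were among those higher in CTCF. Ccdc152, Kif3c and Arhgef18 lost the call without H3K4me3 replicate 2 (edgeR adjusted p = 0.0692, 0.0506 and 0.0822). Ccdc152 also lost it without H3K4me3 replicate 3 or CTCF replicate 3 (edgeR adjusted p = 0.0556 and 0.0884).

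With library totals as the scale, H3K27ac against Pol2S2P gave more calls towards the polymerase, among all genes as among members. At 1000 cells 56 genes were tested, with 4 higher in H3K27ac and 21 in Pol2S2P by edgeR (10.2% and 36.2% of all genes tested), or 11 and 14 with TMM. The median log2 fold change was -0.26 over members and -0.29 over all genes. The lowest were Cwf19l2 (-1.13, SE 0.15, adjusted p = 4.17e-13), a gene linked to splicing, Hspa14 (-1.07, SE 0.20), Eif4enif1 (-1.02, SE 0.10), which encodes a transporter of the translation factor eIF4E, Zfp358 (-0.99, SE 0.39) and Ppp6r3 (-0.99, SE 0.09), a subunit of protein phosphatase 6. Cwf19l2 had 16.6, 21.2 and 22.4 CPM of H3K27ac and 41.1, 44.6 and 45.7 of Pol2S2P over the gene, without overlap. Higher in H3K27ac were AU018091 (1.26, SE 0.32), Arhgef18 (0.66, SE 0.08), Patz1 (0.52, SE 0.15) and Fam171a1 (0.20, SE 0.08). Zfp358 lost the call with TMM (edgeR adjusted p = 0.146), DESeq2 (0.342), without H3K27ac replicate 1 or 2 (0.1 and 0.159) or Pol2S2P replicate 1 or 3 (0.13 and 0.096). Patz1 lost it without H3K27ac replicate 3 (edgeR adjusted p = 0.0645), and Fam171a1 without H3K27ac replicate 1, 2 or 3 (0.0628, 0.0514 and 0.0747) or Pol2S2P replicate 2 (0.232).

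At 100 cells 45 genes were tested, with 4 higher in H3K27ac and 14 in Pol2S2P by edgeR (8.61% and 25.9% of all genes), or 5 and 6 with TMM. Vps50 (-1.08, SE 0.19), which acts in membrane trafficking, Hspa14 (-1.05, SE 0.31), Asxl2 (-0.996, SE 0.15), Eif4enif1 (-0.92, SE 0.17) and Alkbh8 (-0.86, SE 0.28) were the lowest. Myadm (0.61, SE 0.25), Arhgef18 (0.56, SE 0.13), the LIM kinase gene Limk2 (0.46, SE 0.16) and Fam171a1 (0.44, SE 0.14) were the highest. Hspa14 lost the call with TMM or DESeq2 (adjusted p = 0.0597 and 0.162), as did Alkbh8 (0.128 and 0.265), which lost it also without Pol2S2P replicate 3 (edgeR adjusted p = 0.0525). Myadm lost it with no filter on low counts (edgeR adjusted p = 0.0714), without H3K27ac replicate 1, 2 or 3 (0.0783, 0.163 and 0.0504) and without Pol2S2P replicate 1 or 3 (0.23 and 0.11). Limk2 lost it without H3K27ac replicate 1 or 2 or Pol2S2P replicate 2 (edgeR adjusted p = 0.0505, 0.0883 and 0.062), and Fam171a1 without H3K27ac replicate 2 or Pol2S2P replicate 3 (0.151 and 0.0675). A total of 17 of the 73 genes were tested in none of the 4 comparisons, among them the vomeronasal receptors Vmn1r2, Vmn1r3 and Vmn1r238 and the predicted genes of chromosome 14.

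Whole 500 kb windows gave the target contrasts by chromosome. For H3K4me3 against CTCF at 10000 cells of 19 windows 5 were higher and 11 lower by edgeR (25.8% and 62.7% of all windows). Chromosomes 5 (0.79, SE 0.05), 2 (0.69, SE 0.04) and 12 (0.61, SE 0.04) were the highest and chromosomes 15 (-0.98, SE 0.06) and 10 (-0.88, SE 0.10) the lowest. The median was -0.18 over members and -0.39 over all windows, and with TMM, which moves the latter to -0.10, the split was 9 and 7. At 1000 cells 5 were higher and 13 lower (23% and 49.5% of all windows), or 5 and 5 with TMM. For H3K27ac against Pol2S2P at 1000 cells 4 were higher and 9 lower (25.9% and 32.1%), with chromosome 19 (-0.57, SE 0.06) the lowest and chromosome 16 (0.36, SE 0.10) the highest. At 100 cells 0 were higher and 6 lower by edgeR (18.6% and 25.5%), with 6 windows at an unadjusted p under 0.05. With DESeq2 the split at 100 cells was 0 and 3 and with TMM 1 and 3. The change of each contrast between cell numbers was tested with an edgeR interaction term added after the data had been seen. In both pairs of targets 0 of 19 windows passed adjustment, with 3 and 0 at an unadjusted p under 0.05, where 0.195% and 0% of all windows passed. The smallest of the 3 was on chromosome 12 (0.19, SE 0.07, edgeR adjusted p = 0.168). No other tool was run for it.

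In 10 kb windows of the region the H3K4me3 calls held a listed gene start more often than the CTCF calls. Of 950 such windows 306 passed the filter at 10000 cells, with 52 higher in H3K4me3 and 79 in CTCF by edgeR (14.5% and 28.1% of all windows), or 73 and 53 with TMM. Listed gene starts lay in 39 of the 306, in 24 of the 52 and in 6 of the 79, as counts without a test. Starts were listed for 58 of the 73 genes, and Drg1 and Sfi1 are among those without one. Windows without a listed start can therefore hold a promoter. The shares of called windows with a start were not computed over the whole genome. The median log2 fold change was 1.12 with a listed start and -0.33 without. At 1000 cells 187 passed, with 39 higher and 48 lower (22.6% and 29.1% by edgeR), 20 and 2 of them with a start. For H3K27ac against Pol2S2P, 27 were higher and 80 lower of 341 tested at 1000 cells (11.5% and 14.2% by edgeR), or 37 and 68 with TMM. At 100 cells 12 were higher and 26 lower of 176 (17% and 12.7% by edgeR), but 8 and 10 by DESeq2 and 10 and 11 with no filter on low counts. Of the windows higher in H3K27ac, 3 at 1000 cells and 0 at 100 cells held a listed gene start.

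Single staining was compared with dual staining in the same windows. For CTCF at 10000 cells 0 of 19 windows differed by edgeR (11.3% of all windows did), with 3 at an unadjusted p under 0.05, and 0 by DESeq2. For Pol2S2P at 1000 cells 10 were higher and 5 lower with dual staining (52.6% and 21.5% of all windows by edgeR). With TMM, which moves the median of all windows from 0.22 to 0.05, the split was 5 and 9, and with DESeq2 2 and 9. Among sparse windows, chromosomes 3 (1.35, SE 0.17), 14 (1.25, SE 0.53) and 1 (0.98, SE 0.15) were higher with dual staining. Chromosomes 17 (-0.26, SE 0.04), 11 (-0.26, SE 0.04) and 12 (-0.23, SE 0.04) were lower. On chromosome 3 the Pol2S2P density was 0.228, 0.245 and 0.237 with dual and 0.0940 and 0.0907 with single staining. On chromosome 11 it was 2.79, 2.73 and 2.92 against 3.38 and 3.34. The libraries of both stainings were apart on both chromosomes, in opposite directions.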

How the data were processed

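The values are raw counts per 1 kb bin, unscaled, from 1 table deposited by the authors. The submitters' processing notes name bcl2fastq, HISAT2 2.1.0, GRCm38 and deepTools 3.3.1. The sources used here do not state the treatment of duplicates or of reads with several matches. Of 34 labelled samples 28 matched a column, 6 were not analysed here, and 4 columns of per-sample values matching no sample were not used. Library totals are sums over autosomes and X without 9 extreme bins. The members and lists were chosen with earlier results of these data known.

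Density was compared with exact permutation tests over libraries (two-sided), with Benjamini-Hochberg adjustment over 12 tests. Counts in 500 kb windows, 10 kb windows and genes were fitted over the whole table, with the libraries compared only, by edgeR 4.0.16 (quasi-likelihood, filterByExpr, library totals as above with no further scaling), and adjusted over all features with a threshold of 0.05. The fits were tested on simulated data. Genes and starts are from RefSeq tables of GRCm38.p6. The genes named in each target comparison are up to 5 called genes with the largest change in each direction, beside the 10 genes with most H3K4me3 in 1 bin near a gene end, the 3 highest bins of each target over 2 kb from genes, and the 3 highest and lowest chromosomes. A gene that this rule names is not reported here. Labels and column names give both targets of a dual staining under 1 number. Same-numbered libraries were treated as pairs only in the paired density tests and in the replicate block. All main edgeR fits and the main density tests between groups were unpaired. Deviations of same-numbered libraries correlated over 4909 windows at r 0.107 to 0.239 for H3K27ac and Pol2S2P and 0.0390 to 0.203 for H3K4me3 and CTCF (6 pairs each). Alternatives were TMM, DESeq2 1.42.0, no filter, extreme bins kept, other window lengths and bin choices, a replicate block and each library left out.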

Additional observations from a re-analysis of the deposited data

How the results depend on the processing

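Counts of called windows changed with the scaling, the tool, the replicate block and single libraries. For H3K4me3 against CTCF at 1000 cells, 18 of the 500 kb windows were called, but 10 with TMM and 10 with DESeq2. DESeq2 called 3 for H3K27ac against Pol2S2P at 100 cells, 1 for CTCF between cell numbers, and 0, 0 and 0 for H3K4me3, H3K27ac and Pol2S2P between cell numbers, where TMM called 2 for H3K4me3 and the replicate block 0 for Pol2S2P. In 10 kb windows DESeq2 called 87 for H3K4me3 against CTCF at 10000 cells, 57 for H3K27ac against Pol2S2P at 1000 cells and 18 at 100 cells, where no filter left 21. Of genes, TMM called 11 and DESeq2 10 for H3K27ac against Pol2S2P at 100 cells. For differences in total density, H3K4me3 minus CTCF was -0.132 in the first 250 kb, 0.0227 away from genes, and 0.0292 relative to the chromosome's own mean. H3K27ac minus Pol2S2P was -0.0921 away from genes, -0.0827 relative to the chromosome's own mean and -0.108 with the replicate block. Pol2S2P dual minus single was 0.0496 in the first 250 kb. The log2 ratio to the far end over 1000 kb was -0.134 for H3K4me3, -0.0870 for CTCF, -0.288 for H3K27ac and -0.0788 for Pol2S2P, and for H3K27ac it was -0.0432 away from genes and -0.0373 over bins with a count. H3K4me3 at 10000 minus 1000 cells was 0.0023 away from genes and 0.0104 without chromosome 9, where H3K27ac was 0.0036 and Pol2S2P 0.0001. With each library left out, the density difference ranged over 0.0466 to 0.0549 for H3K4me3 against CTCF, -0.0095 to 0.0059 for H3K4me3 between cell numbers and -0.0012 to 0.0096 for CTCF between stainings. Counts of 500 kb windows between cell numbers ranged over 1 to 2 for H3K4me3, 1 to 3 for CTCF, 0 to 1 for H3K27ac and 0 to 1 for Pol2S2P, and over 4 to 7 for H3K27ac against Pol2S2P at 100 cells and 10 to 15 for Pol2S2P between stainings. Counts of 10 kb windows at 100 cells ranged over 25 to 30. The cause of these changes was not tested. Among genes, the sign turned for Nmt2 (H3K27ac against Pol2S2P at 1000 cells, 0.0288 with TMM and 0.0258 with DESeq2), Fam171a1 (H3K4me3 against CTCF, -0.0192 and -0.0118 at 1000 cells, -0.0075 with TMM at 10000 cells) and Ppp6r3 (-0.0049 with TMM at 1000 cells). With the replicate block in H3K27ac against Pol2S2P, Nlrp12 and Nmt2 at 100 cells and Tiam2 at 1000 cells gained a call.

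With same-numbered H3K4me3 and CTCF libraries paired, the density difference is 0.0513 (exact permutation p = 0.0312, adjusted p = 0.0625), and the replicate block gave 16 and 19 windows of 500 kb at 10000 and 1000 cells and changed the call of 0 of the named genes in that pair of targets. Sparse windows such as that of chromosome 14 rest on few counts, which limits the precision of their values.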
